A study of Mus musculus with 2 samples.

Results

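The 10 genes described here handle iron in the cell. They are Trf, Tfrc, Steap3, Slc11a2 and Slc11a1 (uptake), Fth1, Ftl1 and Ncoa4 (storage and its release), Slc40a1 (export) and Ireb2 (regulation), taken by symbol from a table of 35602 gene symbols. All 10 were found, and all had a combined count of at least 20, as did 18687 genes in all, which are called the genes tested. The symbols were chosen by their role in iron handling, but with their counts in these libraries known, so their differences are descriptions and support nothing further. The material was mouse breast tumour tissue from 2 groups with 1 library each. In the first group a PD-1 inhibitor, which blocks a receptor that restrains T cells, was injected into the abdominal cavity, and in the second the same injection was combined with acupuncture. Both groups therefore received the inhibitor, and no untreated tumour is among the samples. The sources used here give no strain, age or tumour model, and do not say whether a library is 1 animal or a pool. The library of the first group, called the inhibitor-only library, held 105728292 counts, and that of the second, called the acupuncture library, 60752043.

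Iron travels in blood bound to transferrin (Trf), enters cells with the transferrin receptor (Tfrc), is reduced in the endosome by Steap3 and leaves the endosome through the divalent metal transporter Slc11a2. Inside the cell it is stored in shells of heavy and light ferritin chains (Fth1, Ftl1), and Ncoa4 carries ferritin to the lysosome, where the iron is set free. Slc40a1, ferroportin, is the known exporter of iron from mammalian cells, and macrophages use it to return iron from old red blood cells to the blood. When iron is scarce, the iron regulatory proteins, of which Ireb2 encodes IRP2, bind a hairpin called the iron-responsive element. In a 5′ untranslated region this blocks translation, and in the 3′ untranslated region of Tfrc it protects the messenger RNA.

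The hairpins of these genes are shown because their place in the transcript separates the storage and export genes from the receptor gene. They were searched for in GENCODE mouse release M21 transcripts, with the longest coding sequence per gene. The pattern was the letters CNNNNNCAGTG on the transcript strand, with all 5 pairs of the upper stem and at least 3 of 5 pairs of the lower stem formed, G with T allowed. Each window is 27 bases long, written 5′ to 3′ as DNA, with the 6-base loop in capitals.
Fth1, 5′ untranslated region, transcript positions 88 to 114: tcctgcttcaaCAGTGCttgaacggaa
Ftl1, 5′ untranslated region, positions 79 to 105: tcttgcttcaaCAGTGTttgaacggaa
Slc40a1, 5′ untranslated region, positions 91 to 117: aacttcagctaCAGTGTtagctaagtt
Tfrc, 3′ untranslated region, positions 3316 to 3342: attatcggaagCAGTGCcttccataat
Tfrc, 3′ untranslated region, positions 3695 to 3721: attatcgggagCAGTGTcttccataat
Tfrc, 3′ untranslated region, positions 3760 to 3786: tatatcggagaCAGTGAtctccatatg
Tfrc, 3′ untranslated region, positions 3807 to 3833: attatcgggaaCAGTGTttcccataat
Among 21864 protein-coding genes searched, 7 (0.0320%) had such a match in the 5′ untranslated region and 28 (0.128%) in the 3′ untranslated region. The other 6 iron-handling genes had no match to this pattern, which says only that these letters and pairs are not in the transcript searched. Other transcripts of a gene were not searched. For Slc11a2 the transcript used was 3025 bases long, against 5732 bases over the exons of its 2 coding transcripts. Genome coordinates are not printed, because the annotation follows GRCm38 and the counts another build.

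The exporter, the carrier and the heavy ferritin chain were lower in the acupuncture library. Slc40a1 was 4.21-fold lower, Trf 2.28-fold lower and Fth1 2.23-fold lower, and these 3 passed the limit used here, a ratio of at least 2-fold with a 95% counting interval that excludes 1. None of the 10 was listed as higher, and 7 lay between. Over all genes tested 14.1% were listed, 4.9% as lower and 9.21% as higher. Since the genes were chosen with this contrast known, nothing is read from 3 of 10 against that share. The median log2 ratio of the 10 was -0.29, against 0.0003 for all genes tested. Levels are counts per 1000000 (CPM) of library sizes scaled by TMM, edgeR's trimmed mean method. Ratios put the acupuncture library over the inhibitor-only one. With 1 library per group there was no replicate check and no test, and intervals cover counting error only.

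**Figure D1:**
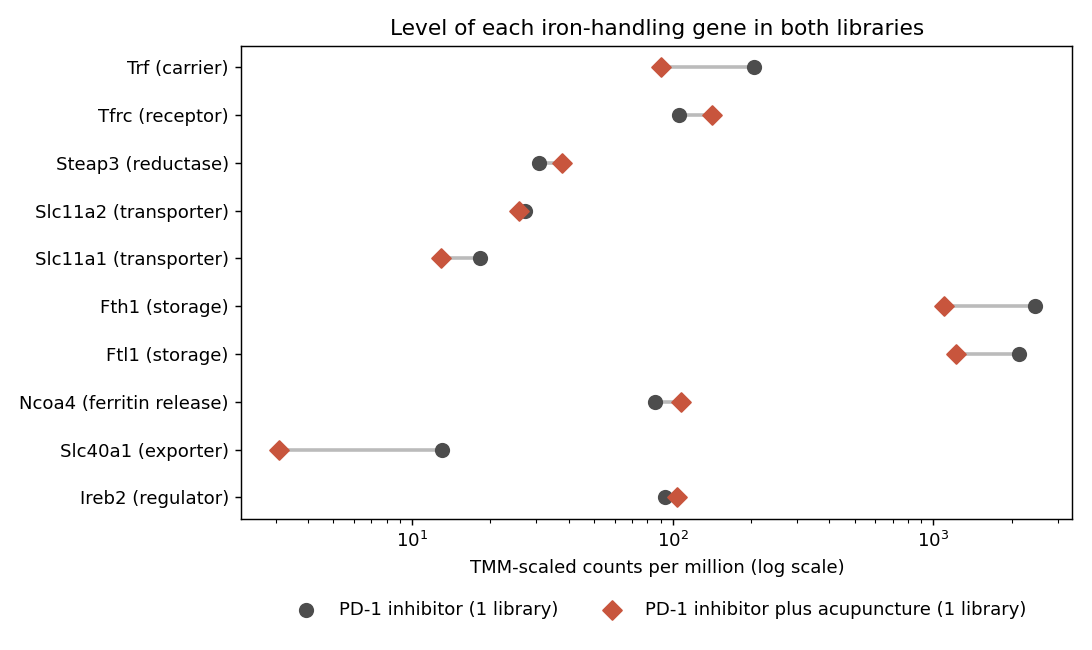
TMM-scaled CPM (x axis, log scale) of the 10 iron-handling genes (y axis, with their role) in the inhibitor-only library (grey circles) and with acupuncture (red diamonds), 1 library each. Slc40a1 shows the widest gap, from 13.1 to 3.10 CPM, while Slc11a2 nearly coincides at 27.1 and 25.7 CPM.

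Of the uptake genes, the carrier and its receptor differed in opposite directions. Trf had 21008 counts (206 CPM) in the inhibitor-only library and 5678 counts (90.2 CPM) with acupuncture. The acupuncture library was the low one, at 0.439 times the other (95% counting interval 0.426 to 0.452). Tfrc had 10774 counts (106 CPM) and 8909 counts (142 CPM). Here the acupuncture library was the high one, at 1.34 times the other (1.30 to 1.38), which is short of 2-fold. The count ratio of receptor to carrier went from 0.513 to 1.57, a 3.06-fold difference (2.94 to 3.19, from the normal approximation on the log scale) that does not depend on how the libraries are scaled. Steap3, the endosomal ferrireductase, stood at 30.7 and 37.6 CPM (3139 and 2367 counts), a ratio of 1.22 (1.16 to 1.29). Slc11a2, the endosomal and intestinal iron transporter, stood at 27.1 and 25.7 CPM (2764 and 1615 counts), and the interval of its ratio of 0.948 (0.891 to 1.01) held 1. Its homologue Slc11a1, which moves divalent metals out of the phagosome of macrophages and neutrophils, stood at 18.3 and 12.9 CPM (1866 and 813 counts), a ratio of 0.707 (0.650 to 0.768). The count ratio of Slc11a1 to Slc11a2 was 0.675 in the inhibitor-only library and 0.503 with acupuncture, 1.34-fold lower (1.21 to 1.49).

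Transferrin is made mainly by the liver, and also by the milk-producing mammary gland, fat and Schwann cells, so markers of these were read beside Trf. Of 8 hepatocyte markers 6 could be tested, and 2 were listed as higher and none as lower. Their summed level was 1.27 CPM in the inhibitor-only library and 4.47 CPM with acupuncture, with Ttr at 0 in both libraries and Apoa1 at 0 with acupuncture. The most abundant of them, Serpina1c, which has near-identical copies, had 40 and 191 counts. Of 6 milk protein genes 3 could be tested and 2 were listed as lower, with summed levels of 3.81 and 3.34 CPM. Csn1s2a was at 0 in both libraries, Wap in the inhibitor-only library, and Csn2, Csn1s1 and Lalba with acupuncture. Csn3 made up most of both sums, at 3.24 and 3.31 CPM (331 and 208 counts), a ratio of 1.02 (0.853 to 1.22). Of 10 adipocyte markers 9 were listed as higher with acupuncture and none as lower, with summed levels of 549.95 and 2030.2 CPM and Fabp4 as the most abundant. Of 8 Schwann cell markers, 7 of which could be tested, 1 was listed as higher and none as lower, at 55.5 and 58.5 CPM in sum, with Mbp as the most abundant and Pmp2 at 0 in both. Trf itself was at 206 CPM in the inhibitor-only library and 90.2 CPM with acupuncture. In bulk tissue, fewer cells of a type and less RNA per cell cannot be told apart, and the part of these cells in the Trf difference was not tested.

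Both ferritin chains were among the most abundant transcripts and were lower with acupuncture. Fth1, the heavy chain that oxidises iron for storage, had 250289 counts (2452 CPM) in the inhibitor-only library and 69240 counts (1100.5 CPM) with acupuncture. It ranked 16th of all symbols by count in the first library and 61st in the second. The fold was 2.23 lower (2.21 to 2.25). Ftl1, the light chain that helps to form the iron core, had 218026 counts (2136 CPM) and 77045 counts (1225 CPM), at ranks 20 and 50. It was 1.74-fold lower (1.73 to 1.76), short of the limit. Together the chains took 0.443% of all counts in the inhibitor-only library (exact Clopper-Pearson 95% interval 0.442% to 0.444%) and 0.241% with acupuncture (0.240% to 0.242%). The other 8 genes together took 0.0560% (0.0555% to 0.0564%) and 0.0541% (0.0536% to 0.0547%).

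The heavy and light chains were not lower to the same degree. Fth1 exceeded Ftl1 by count in the inhibitor-only library, at a ratio of 1.15, and lay below it with acupuncture, at 0.899. The ratio was 1.28-fold lower with acupuncture (1.26 to 1.29), which again needs no library scaling. Per kilobase of coding length the levels were 4490 CPM for Fth1 and 3890 CPM for Ftl1 in the inhibitor-only library, and 2016 CPM and 2230 CPM with acupuncture. Per kilobase of whole transcript (929 and 968 bases) the order was the same in each library. Ferritin genes have near-identical copies elsewhere in the genome, and no source used here says how reads shared with them were counted. The copies listed by family name held few counts, with 30 and 9 for Ftl1-ps2, 2 and 0 for Fthl17e, and 0 in both libraries for Fthl17a, Fthl17b, Fthl17c, Fthl17d, Fthl17f and Fthl17-ps1.

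Ncoa4, the receptor that hands ferritin to autophagy, stood at 85.3 CPM (8708 counts) in the inhibitor-only library and at 107.996 CPM (6795 counts) with acupuncture. Its ratio was 1.27 (1.23 to 1.31), between the limits, with the acupuncture library higher. Relative to its cargo Fth1 the count ratio went from 0.0348 to 0.0981, a 2.82-fold difference (2.73 to 2.91). That pair was chosen after the values were seen, as were the next pairs given for Tfrc. Tfrc relative to Fth1 went from 0.0430 to 0.129, a 2.99-fold difference (2.90 to 3.08). The gene that brings iron in and the gene that stores it thus differed in opposite directions, and the ratio between them is free of the library scaling.

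Slc40a1 differed most. It had 1333 counts (13.1 CPM) in the inhibitor-only library and 195 counts (3.10 CPM) with acupuncture, 4.21-fold lower (3.62 to 4.92). Its log2 ratio was -2.07, and 188 of the 18687 genes tested (1.01%) had a lower value. Tfrc relative to Slc40a1 went from 8.08 to 45.7 by count, a 5.65-fold difference (4.85 to 6.59). Macrophages, which express ferroportin strongly when they recycle red blood cells, were read by 12 markers. Of these 1 was listed as lower (Mertk, at 0.438 times), none as higher and 11 fell short of the limit. The median log2 ratio over the 12 was -0.26. Their summed level was 1836 CPM in the inhibitor-only library and 1560.03 CPM with acupuncture, none was at 0, and C1qa was the most abundant. None of the 12 had a log2 ratio below that of Slc40a1, and the lowest was that of Mertk at -1.19. Cd163, a macrophage gene outside these 12 that was read with the haem genes, was at -0.89. For Slc11a1, at -0.50, 1 of the 12 lay lower. Neutrophils also express Slc11a1, and of 10 neutrophil markers 9 were listed as lower and none as higher, with a median of -1.91 and summed levels of 557 and 156 CPM. None of them was at 0 and Mmp9 was the most abundant. The part of either cell type in the Slc40a1 and Slc11a1 differences was not tested.

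Ireb2, the iron-regulated RNA-binding protein IRP2, differed little, at 93.9 and 103.6 CPM (9582 and 6519 counts) and a ratio of 1.10 (1.07 to 1.14). IRP2 is known to be controlled mainly by breakdown of the protein, which these data do not measure. Its partner Aco1, which encodes IRP1, stood at a ratio of 1.16 (1.12 to 1.20), and Fbxl5, which marks IRP2 for breakdown, at 0.896 (0.872 to 0.921). Set by their hairpins, the 3 genes with a match in the 5′ untranslated region had log2 ratios of -2.07 (Slc40a1), -1.16 (Fth1) and -0.80 (Ftl1), all lower with acupuncture. Tfrc, with 4 matches in the 3′ untranslated region, was at 0.42. The 6 genes in the table with a 5′ match, all tested, went both ways. Alas2 was 2.69-fold higher (2.37 to 3.05) and Serpina3g 3.06-fold higher (2.94 to 3.18). Ppp1r1b, at 32 and 8 counts, was 2.47-fold lower (1.11 to 6.19). A match to the pattern is not a shown binding site, and the part of the hairpins in these differences was not tested. Protein levels and iron were not measured in these files.

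**Figure D2:**
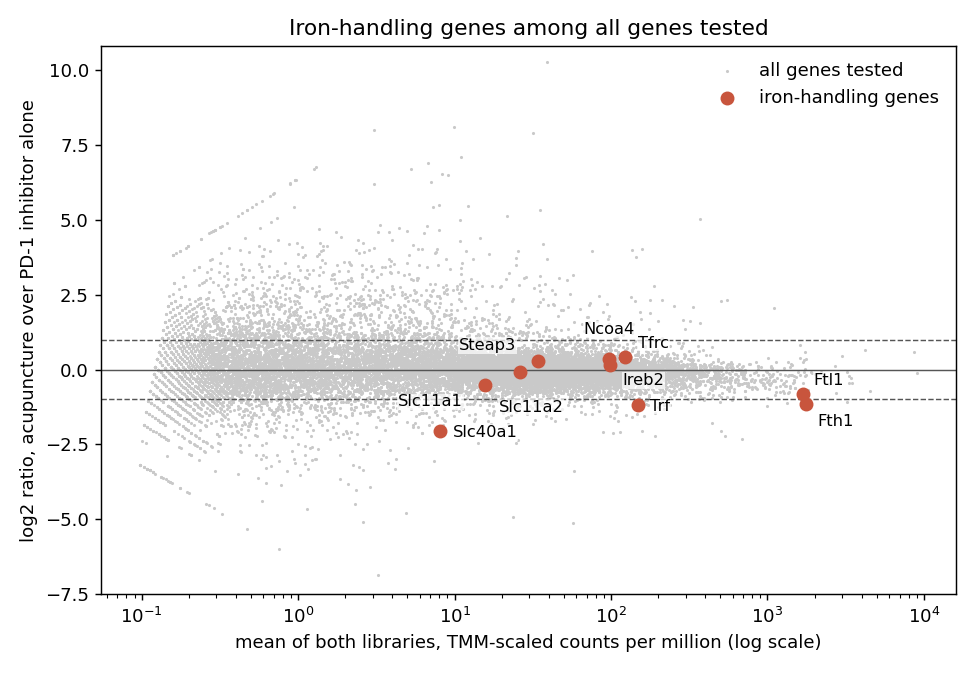
Log2 ratio of acupuncture over inhibitor-only library (y axis, dashed lines at the 2-fold limit) against the mean level of both libraries in TMM-scaled CPM (x axis, log scale). Grey points are the 18687 genes tested and red points the 10 iron-handling genes. Slc40a1, Trf and Fth1 lie below the lower dashed line at -2.07, -1.19 and -1.16, and Tfrc is the highest of the 10 at 0.42.

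In order of log2 ratio the 10 genes ran from Slc40a1, through Trf, Fth1, Ftl1, Slc11a1, Slc11a2, Ireb2, Steap3 and Ncoa4, to Tfrc. Neighbours whose counting intervals overlapped were Trf and Fth1, Steap3 and Ncoa4, and Ncoa4 and Tfrc. The interval excluded 1 on the low side for 5 genes and on the high side for 4. At this depth that is common: with no fold limit it was so for 34.8% of all genes tested on the low side and 35.1% on the high side. Ordered by level per kilobase of coding length, Fth1 and Ftl1 led, and the remaining genes ran from 98.4 CPM (Trf) to 7.64 CPM (Slc40a1) in the inhibitor-only library and from 61.9 CPM (Tfrc) to 1.81 CPM (Slc40a1) with acupuncture. Trf stood above Tfrc in the inhibitor-only library, at 98.4 against 46.1 CPM, and below it with acupuncture, at 43.2 against 61.9 CPM. Per kilobase of whole transcript Trf stayed above Tfrc in both, at 87.98 against 21.6 CPM and at 38.6 against 28.96 CPM, so which of them is higher with acupuncture depends on the length used.

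The calls for Trf and Fth1 depended on the library scaling. Setting 10 epithelial markers, which include 3 listed as lower and none as higher, to a median of 0 raised the median log2 ratio of all genes tested by 0.559. Slc40a1 was then 2.85-fold lower and still listed, while Trf at 1.54-fold and Fth1 at 1.51-fold lower no longer were, and the split over all genes moved from 1721 higher and 916 lower to 3714 higher and 345 lower. Epithelial markers, of which Krt8 was the most abundant and none was at 0, had summed levels of 4351 and 2989 CPM and a median log2 ratio of -0.56. These keratins and junction proteins, expected of a mammary carcinoma, were thus detected in both libraries. Under that scaling Slc11a1 stood at 0.06 and Slc11a2 at 0.49. The order of the 10 genes is the same under any scaling, since scaling shifts all log2 ratios together.

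**Figure D3:**
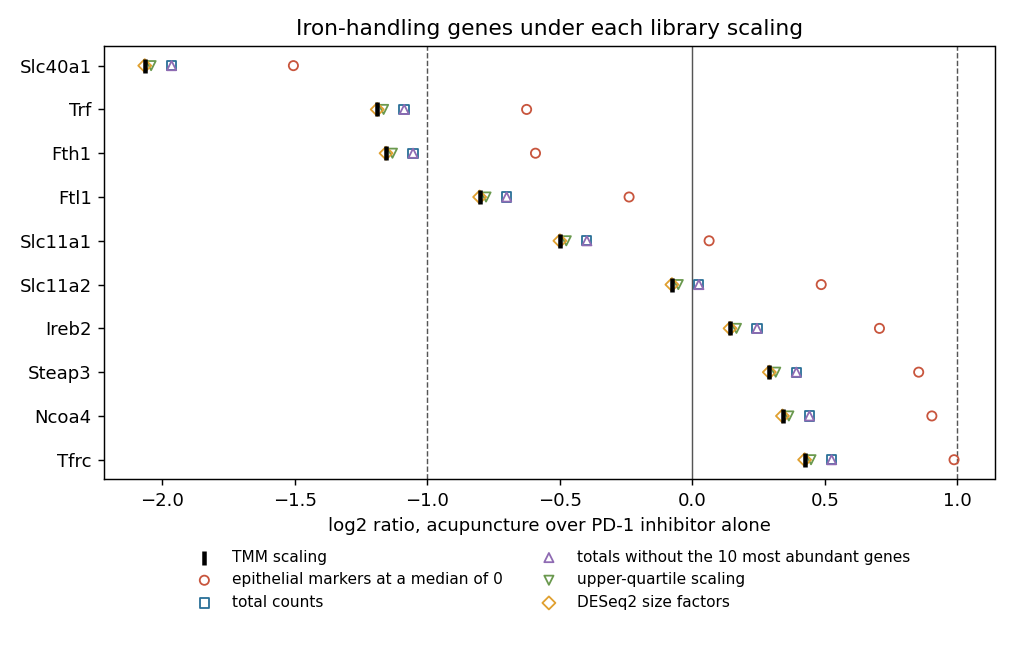
Log2 ratio of acupuncture over inhibitor-only library (x axis, dashed lines at the 2-fold limit) for each of the 10 genes (y axis) under TMM scaling (black bars) and 5 other scalings (open symbols). Under the epithelial scaling every gene shifts to the right together, with Slc40a1 at -1.51 and Tfrc at 0.99, and the other 4 scalings stay close to TMM.

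Beyond the 10 genes, 81 further genes of iron and haem handling in 7 lists were read, of which 77 could be tested. Of these 8 (10.4%) were listed as higher and 2 (2.60%) as lower, beside 9.21% and 4.9% of all genes tested, and their median log2 ratio was 0.03. The genes that feed iron into haem and iron-sulphur clusters stood near 1. None of 8 haem synthesis genes was listed (median 0.04), with Alad, the most abundant of them, at a ratio of 1.10 (1.06 to 1.15). None of 22 mitochondrial iron and iron-sulphur genes was listed (median 0.07, from -0.59 to 0.38), with the cluster-assembly chaperone Hspa9 at 1.07 (1.06 to 1.09). None of 7 tested chaperone and ferritin-turnover genes was listed either (median -0.18), with the iron chaperone Pcbp2 at 1.02 (1.003 to 1.04). Mitochondrial ferritin, Ftmt, had 0 counts in both libraries, which allows up to 0.0294 CPM in the inhibitor-only library and 0.0477 CPM with acupuncture.

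Other import genes went both ways. Of 13 tested 2 were listed as higher and 1 as lower (median -0.16). Steap4, a plasma membrane metalloreductase found in fat among other tissues, was 2.99-fold higher with acupuncture (2.87 to 3.11) at 36.3 and 108.4 CPM. Tfr2, the second transferrin receptor, was 2.56-fold higher (1.79 to 3.69) at 52 and 82 counts. Lcn2, lipocalin 2, which binds iron-loaded siderophores and is stored in neutrophil granules, was 2.15-fold lower (2.09 to 2.20) at 276 and 128 CPM. By the mean of both libraries it was also the most abundant gene of that list, though Steap2 stood above it with acupuncture. Meltf, melanotransferrin, had 7 and 0 counts, too few to test. Of the genes around hepcidin and the ferroxidases 8 could be tested, and 3 were listed as higher and none as lower (median 0.19). Hjv, haemojuvelin, which skeletal muscle expresses strongly, was 8.85-fold higher (6.79 to 11.7), Bmp6, which induces hepcidin in liver, 3.90-fold higher (2.75 to 5.61) and Hephl1, a ferroxidase, 11.8-fold higher (4.13 to 46.1) at only 4 and 29 counts. Ceruloplasmin, Cp, the most abundant of these, stood at 0.717 times (0.706 to 0.727). Hepcidin itself, Hamp, had 0 and 10 counts, below the minimum for testing, and Hamp2 had 0 in both libraries. Muscle markers were all 10 listed as higher, with summed levels of 188.9 and 2114 CPM, none at 0 and Myh4 the most abundant with acupuncture (Acta1 in the inhibitor-only library), and their part in the Hjv difference was not tested. The adipocyte markers given for Trf were higher in the same library as Steap4, and their part was not tested either.

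**Figure D4:**
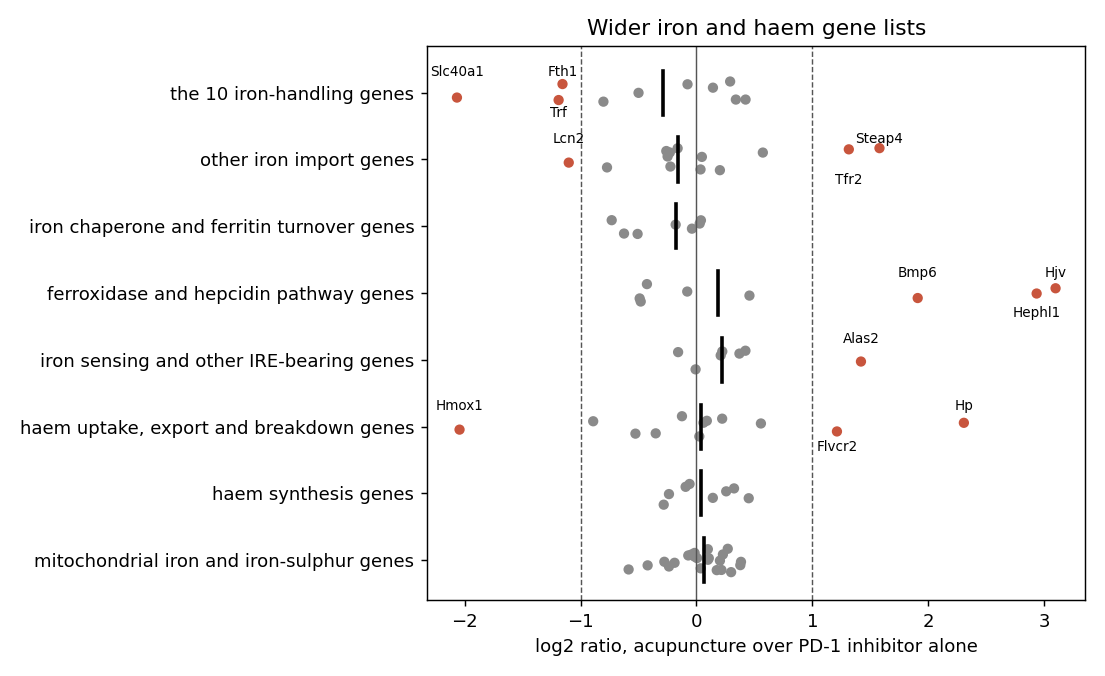
Log2 ratio of acupuncture over inhibitor-only library (x axis, dashed lines at the 2-fold limit) for the 10 iron-handling genes and 7 wider lists (y axis). Each point is a gene tested, red and named where listed, black bars are list medians, and vertical scatter is only for legibility. The mitochondrial list stays between -0.59 and 0.38, while Hmox1 and Slc40a1 lie lowest at -2.04 and -2.07.

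Among haem genes the enzyme that frees iron from haem was lower. Hmox1, haem oxygenase 1, had 25947 counts (254 CPM) in the inhibitor-only library and 3877 counts (61.6 CPM) with acupuncture, 4.12-fold lower (3.99 to 4.27). Its constitutive relative Hmox2 stood at a ratio of 1.02 (0.980 to 1.06). Cd163, the macrophage receptor for haemoglobin bound to haptoglobin, stood at 0.539 times (0.522 to 0.557), and Slc48a1, which carries haem out of the lysosome, at 0.694 times (0.667 to 0.723). Haptoglobin, Hp, was 4.95-fold higher (4.87 to 5.03), and the transporter Flvcr2 2.47-fold higher (1.38 to 4.51) at 21 and 32 counts. Lrp1, the haemopexin receptor, had the highest mean level of the 12 and stood at 0.784 times (0.773 to 0.794), at 636 and 499 CPM, with Hp above it in the acupuncture library at 918 CPM. Over the 12 genes 2 were listed as higher and 1 as lower (median 0.04). In the list of iron sensing genes and other hairpin carriers 1 of 7 was listed, Alas2, the erythroid enzyme that starts haem synthesis, as higher. Erythroid markers were higher in the same library as Alas2: of 6 tested 3 were listed as higher and none as lower, with summed levels of 305 and 662 CPM, Hbb-bs the most abundant, and Rhag at 0 in both. The 4 haemoglobin genes took 0.0294% of counts in the inhibitor-only library (0.0290% to 0.0297%) and 0.0684% with acupuncture (0.0678% to 0.0691%). Their part in the Alas2 difference was not tested.

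Markers of other cells and states differed between the libraries too. Of 10 hypoxia markers 9 were listed as lower and none as higher, with summed levels of 5492 and 2559 CPM, a median of -1.26, none at 0 and Ldha the most abundant. They were lower in the same library as Fth1, Trf, Slc40a1 and Hmox1, and their part in those differences was not tested. All 8 B cell markers, all 8 T cell markers and all 7 lymph node stroma markers were listed as higher. Their summed levels were 2.80 and 122.95 CPM for B cells, 24.7 and 130.9 CPM for T cells and 1.59 and 187 CPM for lymph node stroma. The most abundant with acupuncture were Cd79a, Lck and Glycam1, and in the inhibitor-only library Fcer2a, Lck and Cxcl13. In the stroma list Chst4 and Fcmr were at 0 in the inhibitor-only library. Of 8 fibroblast markers 1 was listed as higher and none as lower, at 7050 and 9621 CPM in sum, with Col3a1 the most abundant. Of 8 proliferation markers, read because dividing cells need Tfrc, none was listed, their median was 0.17 and their summed levels were 1875 and 2166 CPM, with Top2a the most abundant. Tfrc, at a log2 ratio of 0.42, lay above that median and within the range of these 8, from -0.04 to 0.53. The part of dividing cells in the Tfrc difference was not tested.

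**Figure D5:**
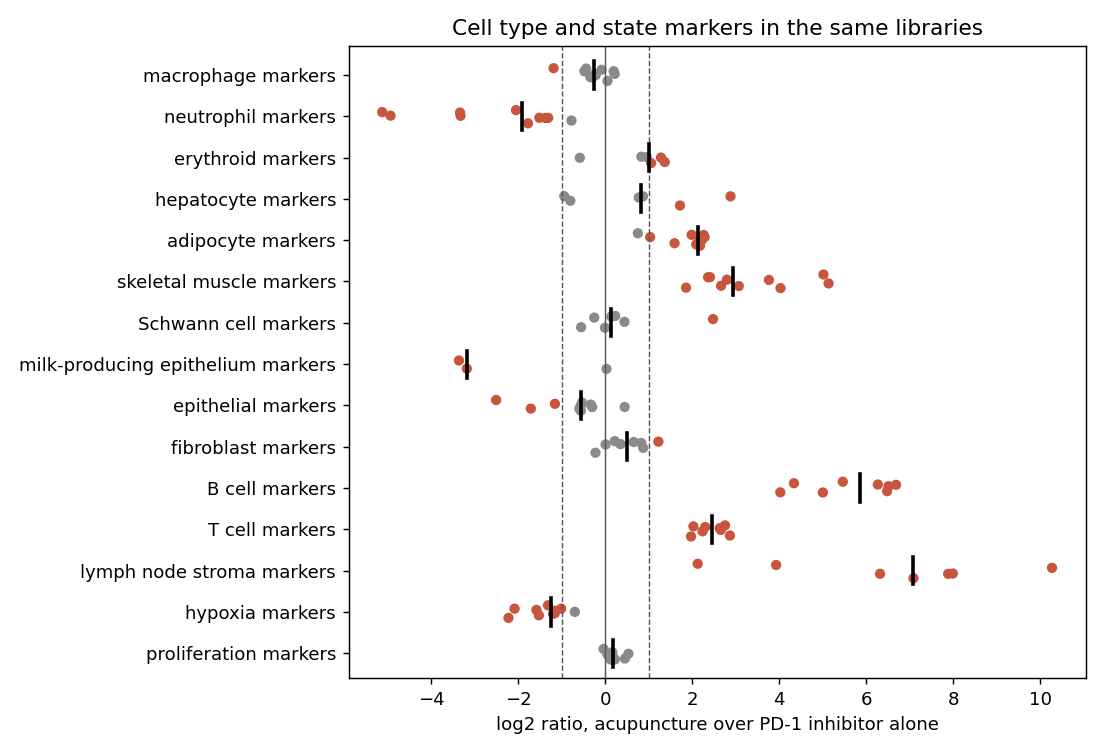
Log2 ratio of acupuncture over inhibitor-only library (x axis, dashed lines at the 2-fold limit) for markers of 15 cell types and states (y axis). Each point is a gene tested, red where listed, black bars are list medians, and vertical scatter is only for legibility. Neutrophil and hypoxia markers lie on the low side, at medians of -1.91 and -1.26, and muscle, B cell and lymph node markers on the high side, at 2.93, 5.86 and 7.08.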

How the data were processed

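Messenger RNA of mouse breast tumour tissue was sequenced from 1 library per group. The table deposited by the authors holds unnormalized whole-number counts for each gene symbol. The builds GRCm39 and mm39 are named in the submitters' processing notes, and no source used here states the aligner, the counter or the strand setting. Library sizes were scaled with TMM (edgeR 4.0.16, R 4.3.3) on the 18687 genes reaching 20 counts over both libraries, giving factors of 0.966 and 1.04. Intervals are exact Clopper-Pearson 95% intervals of the binomial split of a combined count, and sequencing reads without molecular tags are not independent molecules. Log2 ratios carry a prior count of 2, and a count of 0 is read against a floor of 3 counts per library. The 10 genes and the lists were chosen with earlier results of these data known. The named genes were the 10, every listed gene of 7 wider lists (up to 4 each way) with the most abundant gene (by the mean of both libraries), and the most abundant gene and any at 0 of 15 marker lists. A gene that this rule names is not reported here. Serpina3g, Ppp1r1b, Aco1, Fbxl5, Hmox2, Cd163, Slc48a1, Mertk, Steap2, Acta1, Fcer2a, Cxcl13, Ubxn2a, Trim23, Cnst, Camk2n1 and Jaml were named after their values were seen. Ratios, intervals and calls were checked on counts simulated with counting error alone. Such counts hold no variation between animals, so the check cannot show whether a call would repeat. Lengths and hairpins came from GENCODE M21 (GRCm38). The alternatives were 5 other scalings (1 with DESeq2 1.42.0 size factors), count minimums, fold limits, prior counts and a thinned deeper library.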

Additional observations from a re-analysis of the deposited data

How the results depend on the processing

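With a 4-fold limit 1 of the 10 genes was listed as lower (Slc40a1), as it was with epithelial markers set to a median of 0. In every alternative run no gene of the 10 was listed as higher. A 1.5-fold limit listed 7 of the wider iron and haem genes as lower, a 4-fold limit 3 as higher and 1 as lower, and the epithelial scaling 12 as higher and 1 as lower, against 8 and 2 with TMM. Over all genes the higher and lower counts became 2679 and 1933 with a 1.5-fold limit, 678 and 262 with a 4-fold limit, 1055 and 500 with a combined count of at least 100, and 3714 and 345 under the epithelial scaling. Each of these follows from the limit or shift applied. Total counts and totals without the 10 most abundant genes raised the median log2 ratio of all genes by 0.101. Slc11a2 changed sign under 3 of 8 alternative settings and Slc11a1 under 1, and neither was listed under any of them. The other 8 genes kept their sign under all 8. No paired analysis was possible because each group has 1 library. At 195 counts, the precision of Slc40a1 is the lowest of the 10.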

Other observations

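The hairpin search also gave 26 genes of the table with a match in the 3′ untranslated region, of which 24 had enough counts to be tested. None of the 24, Tfrc included, was listed as higher or lower, against 14.1% of all genes tested, and their median log2 ratio was -0.03. Tfrc was the gene with 4 matches, and each of the others had 1. The closest ratios to that of Tfrc (1.34) were those of Ubxn2a at 1.35 and Trim23 at 1.33, the highest was Cnst at 1.58, and the lowest were Camk2n1 at 0.548 and Jaml at 0.587. These genes were chosen by sequence after the values of the iron genes were seen, and a match in letters and pairs is not a shown binding site.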
